A study of Mus musculus with 7 samples.

Results

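Chromosome 7 loss and deletion of its long arm (7q) are recurrent in human myeloid malignancies, and several 7q genes have been proposed as dosage-sensitive brakes on blood progenitors. The genes described here are mouse counterparts of 10 human 7q genes and lie outside mouse chromosome band 5G2. These are Ezh2, Kmt2c, Kmt2e, Luc7l2, Cul1, Samd9l, Srpk2, Pus7, Dnajc2 and Rint1. They were chosen by name from the deposited table, and all 10 were among its 16760 genes. EZH2, KMT2C, CUL1 and LUC7L2 map to distal human 7q and SAMD9L to a band proximal to 7q22. KMT2E, SRPK2, PUS7, DNAJC2 and RINT1 belong to human 7q22 itself, in a part whose mouse counterpart is proximal chromosome 5. Loss of EZH2, KMT2C, LUC7L2, CUL1 or SAMD9L has been tied to myeloid disease, whereas SRPK2, PUS7, DNAJC2 and RINT1 are better known as residents of the deleted region than as tumour suppressors.

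RNA sequencing was carried out on CD150-negative cells of C57/B6 mice, which the labels call HSC, for haematopoietic stem cells. There were 4 wild-type (WT) libraries and 3 libraries from cells with a deletion in band 5G2 (5G2del), the mouse counterpart of a further part of human 7q22. The labels state neither the age of the mice, nor the ends and zygosity of the deletion, nor whether each library had a mouse of its own, so the spread behind the p-values is that of these libraries and may be technical. The comparison asks whether 7q genes whose own loci lie outside the deleted band differed in level when that band was lost. Depth, as the sum of expected counts rebuilt from the table, ran from 37930174 to 52194274 for a library. The table ties its columns to a group but not to a numbered sample, so libraries carry letters here, WT-A to WT-D and 5G2del-A to 5G2del-C. In WT-B 1104 genes were at 0, more than in any other library (83 to 492).

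These proteins act at several levels of gene control. EZH2 is the catalytic subunit of Polycomb repressive complex 2 (PRC2), which methylates lysine 27 of histone H3 at silenced genes. KMT2C marks enhancers by methylating lysine 4 of histone H3, and KMT2E is a SET domain relative required for normal stem cell function in mice. LUC7L2 belongs to a family of U1 snRNP partners that influence which 5′ splice sites are used, and SRPK2 phosphorylates SR splicing factors. CUL1 is the scaffold of SCF ubiquitin ligases. SAMD9L is an interferon-inducible protein that restrains translation and proliferation, and it is the only gene of the SAMD9 pair in the mouse. PUS7 makes pseudouridine in RNA, DNAJC2 is a ribosome-associated co-chaperone that also binds ubiquitinated histone H2A, and RINT1 acts in a vesicle tether at the endoplasmic reticulum and binds RAD50.

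Promoter sequences were examined first, for strings that mark interferon and cell cycle control. RefSeq sequences on build GRCm38.p6, running from 250 bases before to 50 bases after a start site, were held for 8 of the 10 genes (13 windows). The 3 windows with a match are shown on the gene's own strand, 5′ to 3′, with the matched letters in capitals. They are chr6:3399522-3399821 for Samd9l (minus strand), chr6:47453482-47453781 for the first of the Cul1 start sites (plus strand) and chr6:47594981-47595280 for Ezh2 (minus strand).
Samd9l: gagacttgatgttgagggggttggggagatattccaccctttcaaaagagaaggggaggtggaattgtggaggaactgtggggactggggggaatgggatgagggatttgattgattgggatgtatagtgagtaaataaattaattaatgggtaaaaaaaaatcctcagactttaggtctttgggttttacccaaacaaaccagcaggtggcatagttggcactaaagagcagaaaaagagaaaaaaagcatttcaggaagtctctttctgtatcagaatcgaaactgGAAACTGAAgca
Cul1: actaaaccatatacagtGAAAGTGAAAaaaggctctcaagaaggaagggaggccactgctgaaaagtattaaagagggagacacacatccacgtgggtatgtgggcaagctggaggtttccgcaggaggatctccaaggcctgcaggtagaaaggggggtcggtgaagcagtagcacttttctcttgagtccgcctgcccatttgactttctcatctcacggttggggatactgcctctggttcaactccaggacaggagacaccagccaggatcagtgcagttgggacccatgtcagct
Ezh2: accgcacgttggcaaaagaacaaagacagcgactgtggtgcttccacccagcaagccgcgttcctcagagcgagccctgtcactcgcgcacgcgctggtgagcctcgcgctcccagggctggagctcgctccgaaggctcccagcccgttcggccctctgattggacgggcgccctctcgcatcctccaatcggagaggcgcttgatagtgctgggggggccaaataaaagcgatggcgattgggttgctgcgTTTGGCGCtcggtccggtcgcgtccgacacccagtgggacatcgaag

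The interferon-stimulated response element was searched on both strands as GAAANNGAA followed by a further A, and 3.44% of 32851 promoter windows held it. Of the genes described here it occurred in Cul1 alone, as GAAAGTGAAA at position -233 from the start site. The Samd9l window lacked it but held its first 9 letters, GAAANNGAA, as GAAACTGAA at position 39. That shorter string, contained in the longer one, was searched after the Samd9l window had been read, and 8.56% of all windows held it. In a list of interferon genes, 8 of the 14 with a promoter window held the longer string, among them Oas3, Ifit1 and Isg15. E2F factors, which drive S phase genes, were represented by TTTGGCGC (0.514% of windows) and TTTCCCGC (1.07%). Ezh2 held the first at position 4 and no gene described here held the second. Among 15 cell cycle genes with a window, Mcm3, Mcm5 and Mcm6 held TTTGGCGC and Hells, Mcm3 and Mcm7 held TTTCCCGC. These matches describe letters in these windows and no binding was measured.

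Across the 10 genes, levels in 5G2del lay close to those in WT. Fold changes of 5G2del over WT, each with its standard error (SE), were taken from limma with a trend in the prior variance. The fit used the deposited log2 CPM (counts scaled by a size for each library) of all 16760 genes. Of all genes 0 (0%) passed an adjusted p of 0.05, none of the 10 among them. At an unadjusted p under 0.05 there were 656 genes (3.91%), where 2.24% of all genes were lower and 1.68% higher, and 1 of the 10, Samd9l, was among the lower. The median log2 fold change of the 10 was -0.07, beside 0.03 over all genes, and 8 of the 10 had a lower mean in 5G2del, as did 46.7% of all genes. The 95% interval of limma lay inside a halving and a doubling (log2 fold change from -1 to 1) for 9 of the 10, as it did for 47.4% of all genes and for 76.0% of those averaging more than 2 log2 CPM. For the remaining gene, Samd9l, it reached past a halving, which the interval left out for 62.1% of all genes. The groups overlapped for 9 of the 10. Over all genes they were apart for 5.70%, and 5G2del was the lower group for 2.78%. In bulk RNA, fewer cells of a type and less RNA per cell cannot be told apart.

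**Figure D1:**
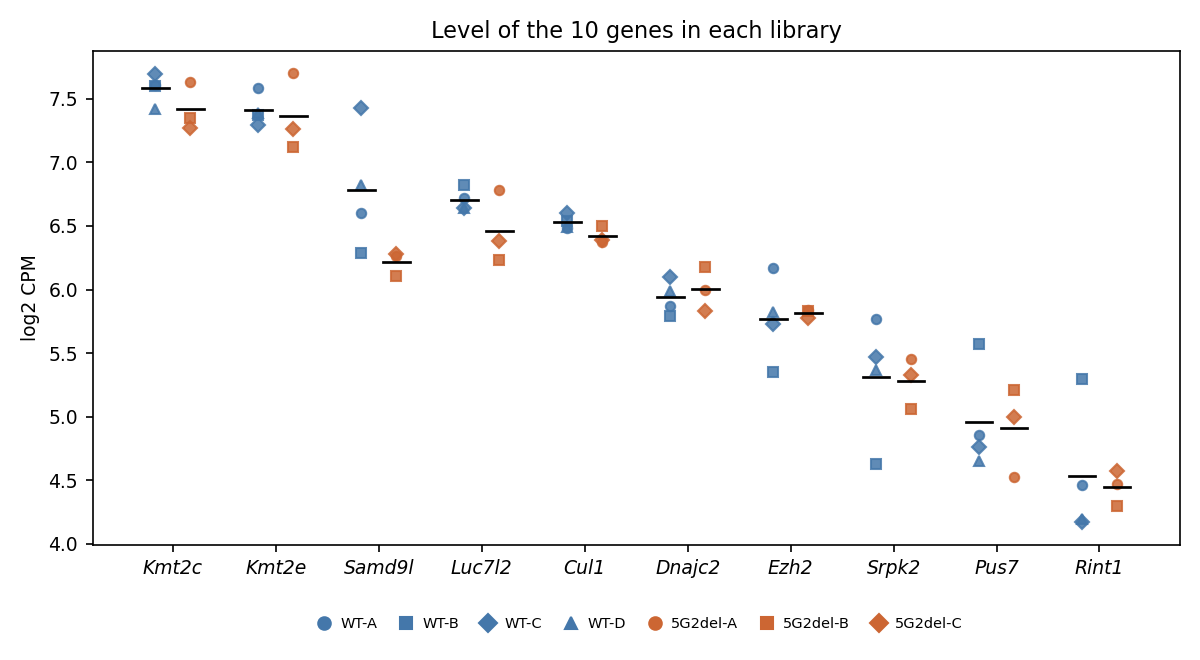
Level of each gene in log2 CPM (vertical axis) for the 4 WT (blue) and 3 5G2del (orange) libraries, one symbol per library, with black bars at the group means. Samd9l is the gene whose groups separate, by 0.011 on the log2 scale, and WT-B holds the highest Pus7 and Rint1 and the lowest Ezh2 and Srpk2.

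**Figure D2:**
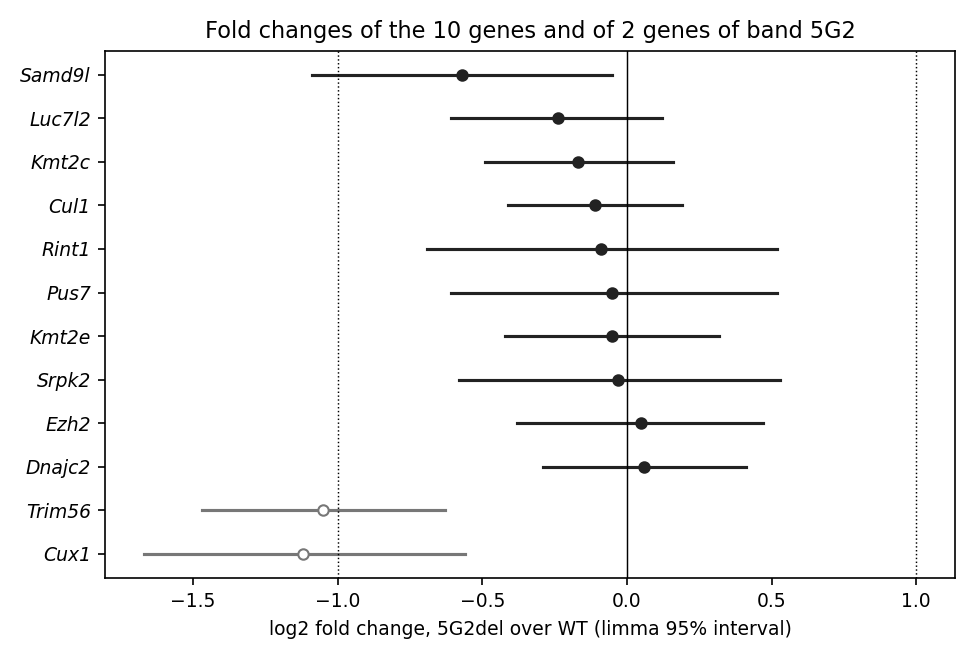
Log2 fold change of 5G2del over WT with the 95% interval of limma for the 10 genes (filled) and for Cux1 and Trim56 of band 5G2 (open), with dotted lines at a halving and a doubling. The intervals of 9 of the 10 genes cross 0 and stay between the dotted lines, whereas those of Cux1 and Trim56 lie below 0.

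Samd9l had the lowest fold change of the 10. It measured 6.26, 6.11 and 6.28 log2 CPM across 5G2del libraries A to C, against 6.60, 6.29, 7.43 and 6.82 across WT libraries A to D. Every 5G2del library thus lay below every WT library, although WT-B was above 5G2del-C by only 0.011, and WT-C stood highest. The log2 fold change was -0.57 ± 0.23 (SE), 0.67 of the WT level, with a 95% interval of the fold from 0.47 to 0.96. Its unadjusted p in limma was 0.0336 and its adjusted p 0.989, ranking 424 of 16760 genes. The authors' deposited table gave Samd9l a log2 fold change of -0.56 and an unadjusted p of 0.0341. Without WT-C the log2 fold change was -0.35 (limma unadjusted p = 0.0795), and without WT-B it was -0.73 (limma unadjusted p = 0.00548). The unadjusted p in limma also rose above 0.05 when 5G2del-A (0.0622), 5G2del-B (0.0961), 5G2del-C (0.0597) or WT-D (0.0642) was left out. With quantile normalization the groups overlapped, with WT-B below the highest 5G2del library by 0.020.

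Interferon genes, the group to which Samd9l belongs, had the same order of libraries at the top. All 21 measured genes of a 22-name interferon list had lower means in 5G2del, as did 46.7% of all genes. With 5G2del-B left out 19 of the 21 were lower. At an unadjusted p under 0.05 in limma 8 were lower, beside 2.24% of all genes. The median log2 fold change of the list was -0.56. The groups did not overlap for 5 of the 21, as for 5.70% of all genes, and Ifi44, Cmpk2, Oas3 and Oas2 are among these 5. None of the 21 passed the adjusted threshold. Ifi44, an interferon-induced protein, had -1.11 ± 0.26, Cmpk2, a mitochondrial nucleotide kinase, -0.89 ± 0.23, and the oligoadenylate synthetases Oas3 and Oas2 -0.76 ± 0.23 and -1.13 ± 0.35. Averaged over the list, the level was 3.84, 3.60 and 4.19 log2 CPM across 5G2del libraries A to C, against 4.15, 4.00, 5.09 and 4.73 across WT libraries A to D. WT-C and WT-D were the highest libraries for both Samd9l and the list, but the list means of the groups overlapped. The median of the list was -0.34 without WT-C and -0.82 without WT-B. Its direction was known when the list was chosen, so it is no independent evidence. Of 10357 other genes averaging more than 2 log2 CPM, those whose profile over the 7 libraries was most like that of Samd9l were Ifi203 (Pearson r = 0.99), Gvin1 (0.97) and Oas3 (0.97). Ifi203 and Gvin1 are interferon-inducible as well. These r values were picked as the highest of all genes searched and share the 7 libraries and their scaling, so they carry no p.

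**Figure D3:**
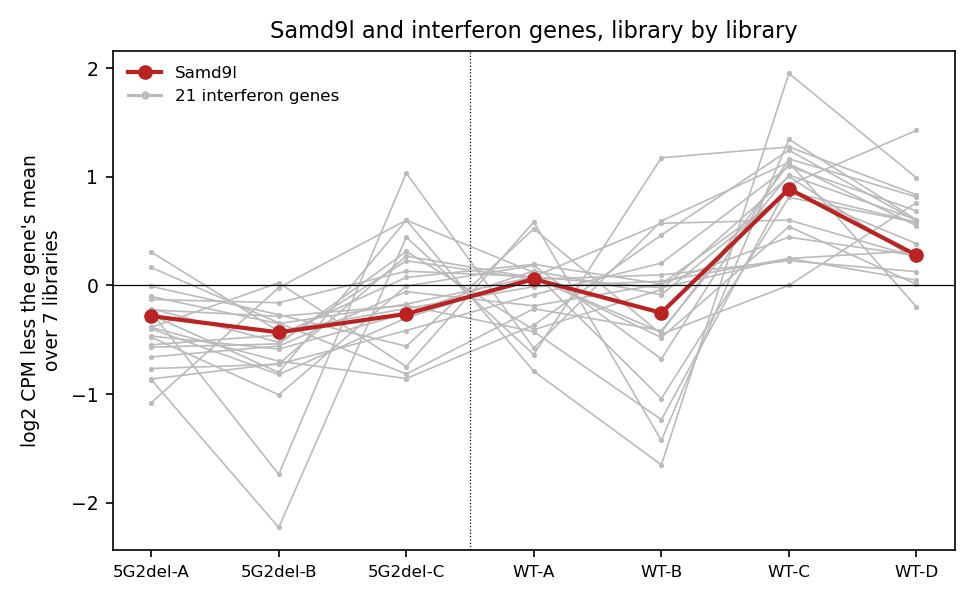
Log2 CPM less each gene's own mean over the 7 libraries (vertical axis) for Samd9l (red) and 21 interferon genes (grey), with 5G2del libraries left of the dotted line and WT libraries right of it. Samd9l is highest in WT-C and WT-D, and WT-B sits at the level of the 5G2del libraries.

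The histone methyltransferase genes Ezh2 and Kmt2c, with the SET domain relative Kmt2e, came next by role. Ezh2 measured 5.84, 5.83 and 5.78 log2 CPM across 5G2del libraries A to C, against 6.17, 5.35, 5.73 and 5.82 across WT libraries A to D. The 5G2del libraries lay within the range of the WT libraries and differed among themselves by 0.06. Its log2 fold change was 0.05 ± 0.19 (SE; limma unadjusted p = 0.809), with an interval of the fold from 0.77 to 1.39. Without WT-B, the lowest library, it was -0.09.

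Kmt2c measured 7.63, 7.35 and 7.27 log2 CPM across 5G2del libraries A to C, against 7.61, 7.60, 7.69 and 7.42 across WT libraries A to D. 5G2del-A lay among the WT libraries while 5G2del-B and 5G2del-C lay below them all. This gave a log2 fold change of -0.17 ± 0.15 (SE; limma unadjusted p = 0.285), with an interval of the fold from 0.71 to 1.12. It was -0.27 without 5G2del-A and -0.09 without 5G2del-C. Kmt2e was spread more widely in 5G2del, with 7.70, 7.12 and 7.26 log2 CPM across 5G2del libraries A to C, against 7.58, 7.37, 7.29 and 7.39 across WT libraries A to D. 5G2del-A was its highest library, above all of WT, while 5G2del-B and 5G2del-C lay below all of WT. In limma the log2 fold change was -0.05 ± 0.17 (SE; limma unadjusted p = 0.791), with an interval of the fold from 0.75 to 1.25.

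Partners of EZH2 and KMT2C were read from lists written by complex. Of 11 measured PRC2 subunits 7 were lower and 4 higher (median log2 fold change -0.03), with 0 at an unadjusted p under 0.05. The 2 with the smallest p were Phf19, a Polycomb-like subunit, at 0.49 ± 0.41, and Eed, the subunit that reads methylated lysine 27, at -0.18 ± 0.18. With 1 library left out Phf19 ran from 0.26 (without WT-D) to 0.79 (without WT-A) and Eed from -0.26 (without 5G2del-B) to -0.10 (without 5G2del-A). The COMPASS family list held KMT2 and SETD1 enzymes, their partners and Setd5, a relative of Kmt2e. Of its 17 measured genes 7 were lower and 10 higher (median 0.09), again with 0 at an unadjusted p under 0.05. Rbbp5, a core subunit, was at 0.32 ± 0.17 without overlap of the groups, its 5G2del libraries spanning 5.29 to 5.53 log2 CPM and its WT libraries 4.96 to 5.26, and Pagr1a, a subunit of the KMT2C complex, at 1.03 ± 0.65. Pagr1a ran from 0.58 without WT-C to 1.56 without WT-A (limma unadjusted p = 0.0222). Cell cycle genes, with which Ezh2 is commonly co-expressed, were higher in 17 of 18 (median 0.20), beside 8925 of all 16760 genes. The list was written with earlier results of these data known. Uhrf1 (0.67 ± 0.28) and E2f1 (0.97 ± 0.42) had an unadjusted p under 0.05 in limma, as did Rb1, the 1 lower gene (-0.53 ± 0.23). None of these passed the adjusted threshold, and the median of the list was 0.09 without WT-C and 0.44 without WT-A. Without WT-C Uhrf1 was at 0.42 and E2f1 at 0.55, and 5 of the 18 genes were lower. The unadjusted p in limma rose above 0.05 for Uhrf1 without 5G2del-A, 5G2del-B or WT-C (highest 0.142), for E2f1 without any one library other than WT-B (highest 0.141) and for Rb1 without WT-A or WT-D, or without 5G2del-B or 5G2del-C (highest 0.17). Fitted without the trend, all of them were above 0.05 (0.0904, 0.0962 and 0.0683 in limma). The mean of the cell cycle list was highest in WT-A (6.18 log2 CPM) and lowest in WT-C (5.16), whereas Ezh2 was highest in WT-A and lowest in WT-B. The profile most like that of Ezh2 was that of Ckap2 (Pearson r = 0.99 over 7 libraries), a spindle protein gene, followed by Dhx38 (0.98) and Pced1b (0.97).

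Among the splicing genes, Luc7l2 had the second lowest fold change of the 10. It measured 6.78, 6.23 and 6.38 log2 CPM across 5G2del libraries A to C, against 6.72, 6.82, 6.64 and 6.64 across WT libraries A to D. As for Kmt2c, 5G2del-A lay among the WT libraries and the other 5G2del libraries lay below them all. The log2 fold change was -0.24 ± 0.17 (SE; limma unadjusted p = 0.17), with an interval of the fold from 0.66 to 1.09. Without 5G2del-A it was -0.40 (limma unadjusted p = 0.0363; leaving out the other libraries one at a time gave -0.12 at the nearest to 0). Without 5G2del-A, Kmt2c, Kmt2e, Luc7l2 and Samd9l were lower without overlap of the groups, as were 6.55% of all genes, and that set was read after its values had been seen. 5G2del-A also carried the most transcripts of mature neutrophil and monocyte markers, with 9 of 12 measured and a summed level of 1450 CPM, beside 397 in WT-A and 5.93 to 21.1 in the other libraries. Chil3, Csf1r, Lcn2, Ltf and Ly6c2 were at 0 in at least 1 library, and the part of these cells in the values was not tested.

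Srpk2 measured 5.45, 5.06 and 5.33 log2 CPM across 5G2del libraries A to C, against 5.77, 4.63, 5.47 and 5.37 across WT libraries A to D. The WT libraries spanned 1.14 on the log2 scale and held all the 5G2del libraries within their range. Its log2 fold change was -0.03 ± 0.25 (SE; limma unadjusted p = 0.916), with an interval of the fold from 0.67 to 1.44. On GENCODE M21 (GRCm38) the 3′ ends of Srpk2 (chromosome 5, 23503264 to 23684617) and Kmt2e (23434441 to 23504235) run into each other on opposite strands and share 972 bases. The strand of counting is not stated, so reads there cannot be told apart. Gene spans also overlap for Ezh2 with Gm26625 (5039 bases) and Luc7l2 with Gm26699 (2477), both lincRNA genes on the opposite strand. Kmt2c overlaps Gm42585 in 4020 bases. Gm26625, Gm26699 and Gm42585 were among the measured genes. Unmeasured genes overlap as well, among them 4933427G23Rik with Rint1 (4752 bases) and A930035D04Rik with Cul1 (545), both on the opposite strand. These counts are of gene spans, introns included, and shared exon bases were not counted.

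Of 17 U1 snRNP and LUC7 family genes 9 were lower and 8 higher (median -0.01), with 0 at an unadjusted p under 0.05. The 2 with the smallest p were Snrpd2, a core Sm protein, at 0.57 ± 0.40, and Tia1, which helps U1 snRNP to bind weak splice sites, at -0.26 ± 0.21. Single libraries moved both, Snrpd2 from 0.17 without WT-A to 0.89 without 5G2del-A, and Tia1 from -0.47 without 5G2del-A (limma unadjusted p = 0.044) to -0.09 without 5G2del-C. Among 18 SR protein kinases and SR proteins, the kinases and substrates of the SRPK2 pathway, 8 were lower and 10 higher (median 0.01). Srsf9, an SR splicing factor, measured 4.56, 4.59 and 4.55 log2 CPM in the 5G2del libraries and 3.46 to 3.92 in WT. These groups lay well apart, with a log2 fold change of 0.84 ± 0.21 and an unadjusted p of 0.00188 in limma, but the adjusted p was 0.989. Srsf4, a further SR protein, was at 0.40 ± 0.18 (limma unadjusted p = 0.0468), also without overlap. Its unadjusted p in limma stayed under 0.05 with 5G2del-C left out and was above 0.05 with any other library left out (highest 0.207), without the trend (0.0769), with median centring (0.0682) and with quantile normalization (0.0556).

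Cul1 varied least of the 10, with 6.37, 6.50 and 6.39 log2 CPM across 5G2del libraries A to C, against 6.48, 6.54, 6.60 and 6.49 across WT libraries A to D. The groups overlapped by 0.013, because 5G2del-B lay just above WT-A and WT-D. This gave a log2 fold change of -0.11 ± 0.14 (SE; limma unadjusted p = 0.437), with an interval of the fold from 0.75 to 1.14. Of 25 measured genes of SCF ligases and cullin regulation 11 were lower and 14 higher (median 0.04). Cks1b, a cofactor of the SKP2 ligase, was higher at 0.54 ± 0.18 (5.22 to 5.58 log2 CPM in 5G2del, 4.71 to 5.04 in WT). Dcun1d1, which promotes the NEDD8 modification of cullins, was lower at -0.37 ± 0.15 (6.68 to 6.93 log2 CPM in 5G2del, 7.02 to 7.39 in WT). Both had an unadjusted p under 0.05 in limma (0.0106 and 0.0331) and missed the adjusted threshold. The unadjusted p of Cks1b was 0.0575 in limma without 5G2del-C. That of Dcun1d1 was above 0.05 without 5G2del-A, 5G2del-B, WT-C or WT-D (highest 0.116 in limma) and in the fit without the trend (0.0826).

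The RNA modification and chaperone genes lay within the WT range or close to it. Pus7 measured 4.53, 5.21 and 5.00 log2 CPM across 5G2del libraries A to C, against 4.86, 5.57, 4.76 and 4.65 across WT libraries A to D. 5G2del-A was its lowest library and WT-B its highest. In limma the log2 fold change was -0.05 ± 0.26 (SE; limma unadjusted p = 0.857), with an interval of the fold from 0.66 to 1.43, and it was 0.16 without WT-B. Of 12 pseudouridine synthase genes 4 were lower and 8 higher (median 0.19), with 0 at an unadjusted p under 0.05, Pus10 at -0.37 ± 0.20 and Trub1 at 0.27 ± 0.17 having the smallest p.

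Dnajc2 measured 6.0, 6.18 and 5.83 log2 CPM across 5G2del libraries A to C, against 5.87, 5.79, 6.10 and 5.99 across WT libraries A to D. The libraries of the groups were interleaved. The log2 fold change was 0.06 ± 0.16 (SE; limma unadjusted p = 0.698), with an interval of the fold from 0.82 to 1.33. Its partners in the ribosome-associated complex and in Polycomb repressive complex 1 (PRC1) numbered 23, of which 10 were lower and 13 higher (median 0.08), with 0 at an unadjusted p under 0.05. Hspa14, the partner chaperone of DNAJC2 at the ribosome, was at 0.41 ± 0.23 and Phc3, a PRC1 subunit, at -0.29 ± 0.16. Both were named for the smallest p of the list. Their groups did not overlap, as for 5.70% of all genes, and those of Phc3 were 0.036 apart. With 1 library left out Hspa14 ran from 0.33 (without WT-D) to 0.52 (without WT-A). Phc3 ran from -0.35 (without 5G2del-A) to -0.19 (without 5G2del-B).

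Rint1, the gene with the fewest counts among the 10 (627 to 1637 expected counts per library), measured 4.47, 4.30 and 4.57 log2 CPM across 5G2del libraries A to C, against 4.46, 5.30, 4.17 and 4.20 across WT libraries A to D. WT-B lay above all other libraries, and the rest were interleaved. Its log2 fold change was -0.09 ± 0.28 (SE; limma unadjusted p = 0.76), with an interval of the fold from 0.62 to 1.43, and it was 0.17 without WT-B. Of 11 measured partners of RINT1 in the vesicle tether, its SNARE proteins and the RAD50 complex, 3 were lower and 8 higher (median 0.05). Sec22b, a SNARE of traffic between the endoplasmic reticulum and the Golgi, was at 0.47 ± 0.18, its 5G2del libraries spanning 5.13 to 5.31 log2 CPM and its WT libraries 4.44 to 4.91 (limma unadjusted p = 0.0271). It missed the adjusted threshold, and its unadjusted p in limma was above 0.05 without 5G2del-A (0.0591), 5G2del-C (0.0877) or WT-B (0.0525).

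Levels were compared between genes per length, as log2 CPM less the log2 of the exon union of GENCODE M21 in kb, averaged over the 7 libraries. Cul1 stood at 4.47, Samd9l at 4.10, Kmt2e at 4.00 and Dnajc2 at 3.64 on this scale. The next tier held Kmt2c (3.17), Ezh2 (3.05) and Luc7l2 (3.01), whose library values overlapped one another. Pus7 (1.89), Rint1 (1.61) and Srpk2 (1.50) formed a low tier, also overlapping one another. The tiers did not overlap, since the lowest library of Dnajc2 (3.46) exceeded the highest of Ezh2 (3.43) and the lowest of Ezh2 (2.62) the highest of Pus7 (2.52). The exon union counts every annotated exon, so a gene with long alternative ends is placed lower than its main transcript would be.

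Relatives of these genes differed in how their level compared. Ezh1, the other catalytic subunit of PRC2, lay below Ezh2 in every library on the per-length scale, by 1.04 ± 0.10 over the 3 5G2del libraries (mean ± SD, n = 3) and by 0.95 ± 0.21 over the 4 WT libraries (n = 4). Srpk1 lay above Srpk2 in every library, the difference of Srpk2 less Srpk1 running from -2.95 in WT-B to -1.41 in WT-C. Kmt2c less Kmt2d, the other enhancer methyltransferase of the pair, ran from 0.02 to 0.88. Luc7l2 less Luc7l ran from -0.39 to 0.75, so neither relative was the higher in all libraries. RSEM estimates how reads shared by similar genes divide among them. Values of close relatives such as these are uncertain as far as they share reads, and that share was not measured.

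**Figure D4:**
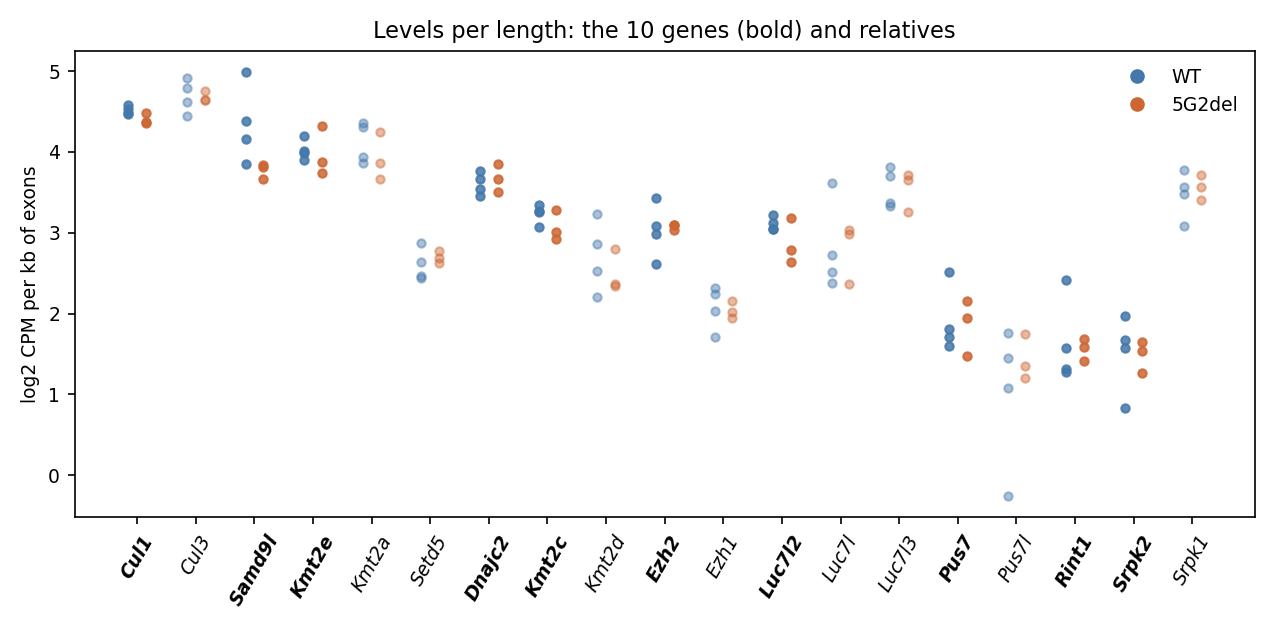
Log2 CPM per kb of annotated exons (vertical axis) for the 10 genes (bold names, strong colour) and relatives (pale), one point per WT (blue) or 5G2del (orange) library. Ezh2 lies above Ezh1 and Srpk2 below Srpk1 in every library, and Pus7, Rint1 and Srpk2 form the lowest tier of the 10.

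By position, Kmt2c, Kmt2e, Srpk2, Pus7, Dnajc2 and Rint1 lie on proximal chromosome 5 of GRCm38, from Dnajc2 (chromosome 5, 21757267 to 21785251) to Kmt2c (chromosome 5, 25271798 to 25498783). That is 111 to 114 Mb from the run of 5G2 genes with lower means between Rasa4 and Zan, whose ends had been marked off from these data. Ezh2, Cul1, Luc7l2 and Samd9l lie on chromosome 6, where Cul1 (47453398 to 47526139) and Ezh2 (47530139 to 47595341) are neighbours, Luc7l2 spans 38551334 to 38609470 and Samd9l spans 3372257 to 3399572. Pus7 (23740648 to 23783711) and Rint1 (23787711 to 23820369) are neighbours on chromosome 5. All 10 are protein-coding. The 6 genes on chromosome 5 had a median log2 fold change of -0.05, from -0.17 to 0.06, and the 4 on chromosome 6 of -0.18, from -0.57 to 0.05. The 57 measured genes within 1 Mb of those on chromosome 5 had a median of -0.00 with 29 lower, and the 52 within 1 Mb of those on chromosome 6 a median of -0.09 with 31 lower. In contrast, all 28 measured genes of the 5G2 run were lower (median -0.87), a count that follows in part from how the run was marked off. Cux1 (-1.12 ± 0.25) and Trim56 (-1.05 ± 0.19) are examples of that run, and neither passed the adjusted threshold (limma adjusted p = 0.989 and 0.874). Around Samd9l, 3 of 7 neighbours were lower (median 0.00), and around Luc7l2 19 of 24 were (median -0.18).

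**Figure D5:**
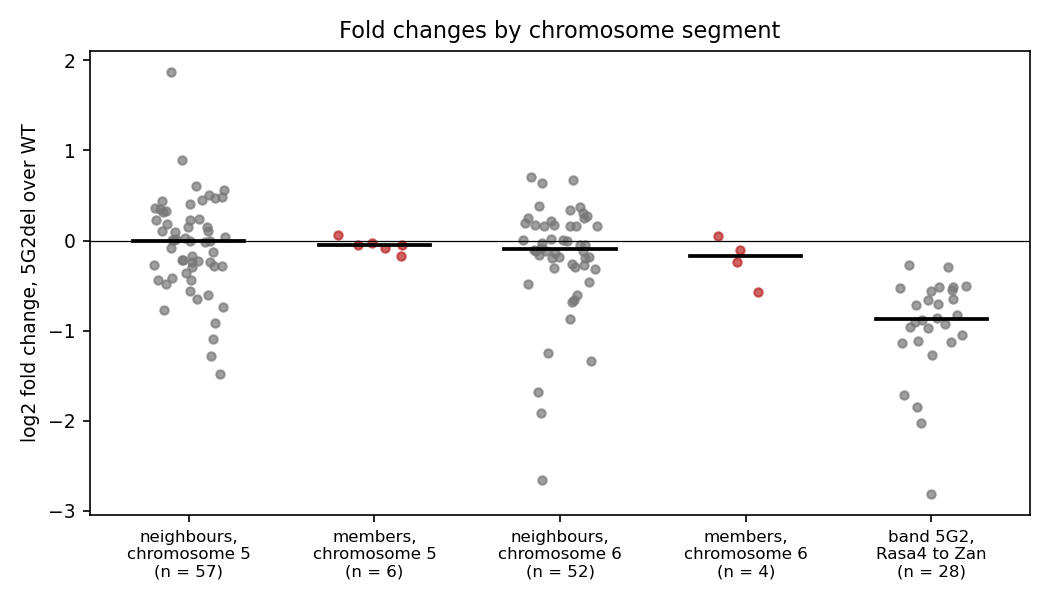
Log2 fold change of 5G2del over WT (vertical axis) for the 10 genes (red) and their measured neighbours within 1 Mb (grey) on chromosomes 5 and 6, and for the run of 5G2 genes from Rasa4 to Zan, with black bars at the medians. The 10 genes run from -0.57 to 0.06, with 8 of them below 0, and their neighbours lie on both sides of 0. The 28 genes of the 5G2 run all lie below 0.

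The cells carried the transcripts of early blood progenitors. Of 11 marker names 10 were in the table (Slamf2 is another name of Cd48), none was at 0 in any library, and their summed level was 1840 to 1990 CPM in the 5G2del libraries and 1780 to 2150 CPM in the WT libraries. Markers of other cells summed to 37.7 to 99.0 CPM in 5G2del and 75.7 to 244 in WT for 9 of 10 erythroid markers, and to 25.9 to 203 and 10.5 to 28.1 for 4 of 7 B cell markers. For 5 of 9 T and NK cell markers the sums were 53.0 to 88.3 and 29.8 to 54.8, for 6 of 7 megakaryocyte markers 27.0 to 43.8 and 20.8 to 34.1, and for 5 of 7 stromal and endothelial markers 18.1 to 21.8 and 7.17 to 20.8. Markers at 0 in at least 1 library included Hba-a2, Slc4a1, Ebf1, Igkc, Il2rb, Treml1 and Cxcl12. Their part in the values of Samd9l and the other genes was not tested.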

How the data were processed

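Total RNA of 7 libraries went through Ovation V2 amplification before paired-end NovaSeq sequencing, per the labels' protocols. The tools listed are an aligner (STAR 2.7.9a), RSEM 1.3.0 and limma 3.50.3, per the submitters' processing notes, which list the builds mm10 and GRCh38 with no role. For annotation, low-gene filter and strand no source used here gives a setting. The authors deposited log2 CPM for each library. Per the file headers, the authors' own comparison gave a log2 fold change, a t score, a p-value, an adjusted p-value and a q-value.

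From the deposited log2 CPM, expected counts were rebuilt with an offset of 0.5, and 69.8% to 73.2% of these were whole within 0.01 count. They served for depth and alternatives. The size that scaled each library was read from its lowest value, taken as a gene at 0. In 5G2del-C (41220904) and WT-C (34865421) it was below the summed expected counts (47664360 and 42038974). In the other libraries it was above that sum. The deposited values were thus not scaled by summed counts alone. A floor of 3 counts lay between 0.0538 and 0.0861 CPM and covers counting error alone. Tests used limma 3.58.1 (R 4.3.3) with a trend and Benjamini-Hochberg adjustment over all 16760 genes, without covariates. They were also run on simulated data with noise drawn independently for each gene and library. That simulation held no shift of a whole library, and its outcome is not given here. Positions came from GENCODE M21, which lacked 12 of the genes.

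The 10 genes, the gene lists and the tests were chosen with earlier results of these data known. Of each list, genes with an unadjusted p under 0.05 (up to 4), or else the 2 with the smallest p, were named. Alternatives were other priors, scalings, offsets, filters and weights, and each library left out in turn. Protein comparisons were not made here.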

Additional observations from a re-analysis of the deposited data

How the results depend on the processing

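Under the 14 alternatives run, the number of the 10 genes past the adjusted threshold was 0 each time, and the median log2 fold change ran from -0.14 to -0.07 with 1 library left out. Over all genes limma called 1 without the trend, and from 0 to 1 with 1 library left out (1 without 5G2del-C). Genes at an unadjusted p under 0.05 numbered 656, and 420 among those with a mean log2 CPM over 2, 1110 with array weights, and 464 to 980 with 1 library left out. Samd9l had a negative log2 fold change throughout, from -0.73 to -0.35 with 1 library left out (unadjusted p from 0.00548 to 0.0961 in limma) and -0.74 with array weights (limma unadjusted p = 0.00362). Without the trend its unadjusted p was 0.0953 in limma. Ifi44, Cmpk2, Oas3, Oas2 and Srsf9 kept an unadjusted p under 0.05 in limma under the 14 alternatives. Values near 0 changed sign. With array weights Ezh2 was at -0.01, Pus7 at 0.16 and Rint1 at 0.08. With 1 library left out, Ezh2 ran from -0.09 to 0.18, Kmt2e from -0.21 to 0.07, Srpk2 from -0.25 to 0.13, Pus7 from -0.20 to 0.16, Dnajc2 from -0.02 to 0.15 and Rint1 from -0.21 to 0.17. The cause of these changes was not tested. Median centring, the voom fit, the offset of 2 counts and quantile normalization turned no sign among the 10. The voom fit returned the authors' deposited log2 fold changes (largest difference 8.48e-14), so it is not a result separate from theirs. Median centring moved the median of all genes by -0.0343 and quantile normalization by -0.0201. Among the lists, the number lower moved by over 1.5 times with median centring for the RINT1 partners (5) and the cell cycle genes (2, as with quantile normalization), and with array weights for the COMPASS family (4), the U1 and LUC7 genes (5), the pseudouridine synthases (2) and the cell cycle genes (2). Array weights turned the SCF median to -0.03, the PRC2 median to 0.03 and the U1 and LUC7 median to 0.09. With 1 library left out the number lower was 4 to 7 for the COMPASS family, 5 to 11 for the U1 and LUC7 genes, 4 to 10 for the SR list, 4 to 5 for the RINT1 partners and 1 to 5 for the cell cycle genes. For the interferon genes that number was 19 to 21. TMM scaling, the first choice for the scaling alternative, is not reported, since the deposited values are not counts, and median centring took its place. No paired analysis was possible because the columns carry no replicate number of the labels. The number of libraries limits precision, and the 95% interval was widest among the 10 for Rint1 (log2 fold change from -0.69 to 0.52).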
